A study of Caenorhabditis elegans with 4 samples.

Results

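The mir-238 and mir-239 microRNAs (miRNAs) of *C. elegans* were followed across 4 small RNA libraries. The members were taken by name and not by any measured value, as every row that names a hairpin or a mature 5p or 3p strand of cel-mir-238, cel-mir-239a or cel-mir-239b. This gave 9 of the 697 rows per library, made up of 3 hairpins and 6 mature strands. The other rows bring the annotation to 250 hairpins and 434 mature names.

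All worms were whole animals at day 0 of adulthood, fed OP50-1 bacteria. The *glp-1(e2144)* library came from strain CF1903, a temperature-sensitive Notch receptor mutant that makes no germline when raised warm, and its reference was WT, the N2 Bristol isolate. Both were kept at 25 °C. The ALG-1/OE library came from strain CT20, whose integrated transgene zaIs5 expresses GFP::ALG-1 from the *alg-1* promoter. Its reference, ctrl, came from strain PE255, whose integrated transgene feIs5 expresses luciferase::GFP from the *sur-5* promoter. Both transgenic strains carry the *rol-6(su1006)* marker and were kept at 20 °C. Each strain gave 1 library, from 6 µg of total RNA of a pool of worms given as about 1000 in the labels, so no error between worms, cultures or preparations can be stated and no test of a strain was possible. Small RNA reads give no measure of *alg-1* or *glp-1* themselves. All intervals below are 95% intervals for counting error alone.

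A miRNA is cut from a hairpin precursor, and 1 strand of the resulting duplex is usually kept by an Argonaute protein such as ALG-1 and guides it to messenger RNAs that pair with the seed near its 5′ end. mir-238, mir-239a and mir-239b are grouped as a family for their related seeds. Their mutants are known for opposite effects on adult lifespan in worms, where loss of mir-238 shortens life and a deletion that removes mir-239a together with mir-239b lengthens it.

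The 3 genes lie in intergenic sequence. The hairpin of mir-238 (WBGene00003331) is on chromosome III from 8867328 to 8867425, on the minus strand. Its nearest annotated gene is cel-mir-80, a bantam family miRNA on the same strand, with 1960 bases between the hairpins. The hairpins of mir-239b (WBGene00003333, minus strand, 11791302 to 11791399) and mir-239a (WBGene00003332, plus strand, 11792445 to 11792542) are on chromosome X with 1045 bases between them, and point away from each other. Between them the annotation has the non-coding RNA C34E11.9 and the small nucleolar RNA C34E11.20. No annotated gene overlaps any of the 3 hairpins. The deposited coordinates of each hairpin equal those of the WBcel235 annotation.

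Reads on mature miRNAs numbered 536907 in *glp-1(e2144)*, 211140 in WT, 238172 in ALG-1/OE and 175048 in ctrl. Levels are given as RPM, the reads of a strand scaled to these totals. The miR-35 to miR-42 family, made in the germline and embryos, took 0.0756% of them in *glp-1(e2144)* and 11.3% in WT, and 8.78% in ALG-1/OE and 6.51% in ctrl. The intestinal miR-60-3p lay between 2099 and 3729 RPM. Of the markers of other tissues, the muscle miR-1-3p had between 0 and 5 reads per library, the neuronal miR-124-3p was listed at 0 in all libraries and the neuronal lsy-6-3p had between 7 and 23 reads, although whole worms hold both tissues. The reason was not tested.

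One strand of each hairpin carried nearly all of its reads, and it was the 3p strand for mir-238 and the 5p strand for mir-239a and mir-239b. miR-238-3p had 9670 RPM in *glp-1(e2144)* and 7772 RPM in WT, and 6344 RPM in ALG-1/OE and 5810 RPM in ctrl, from 5192, 1641, 1511 and 1017 reads. This was the most abundant member in every library, at rank 19 to 25 among the mature miRNAs. The order of its level was *glp-1(e2144)*, WT, ALG-1/OE and ctrl, and the counting intervals of the last pair overlapped. miR-239b-5p had 3881 RPM in *glp-1(e2144)* and 2524 RPM in WT, and 2196 RPM in ALG-1/OE and 2645 RPM in ctrl, from 2084, 533, 523 and 463 reads. It stood highest in *glp-1(e2144)*, and the counting interval of WT overlapped those of ctrl and of ALG-1/OE, which did not overlap each other.

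miR-239a-5p had 2956 RPM in *glp-1(e2144)* and 2415 RPM in WT, and 1289 RPM in ALG-1/OE and 2308 RPM in ctrl, from 1587, 510, 307 and 404 reads. The interval of *glp-1(e2144)*, 2812 to 3105 RPM, lay above those of the other libraries, and that of ALG-1/OE, 1149 to 1441 RPM, lay below them. WT and ctrl overlapped, at 2211 to 2634 RPM and 2089 to 2544 RPM. Its rank was 31 in *glp-1(e2144)* and 40 in WT, and 52 in ALG-1/OE and 41 in ctrl. The 3 main strands together held 1.65% (1.62% to 1.69%) of the mature miRNA total in *glp-1(e2144)* and 1.27% (1.22% to 1.32%) in WT, and 0.983% (0.944% to 1.02%) in ALG-1/OE and 1.08% (1.03% to 1.13%) in ctrl.

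**Figure D1:**
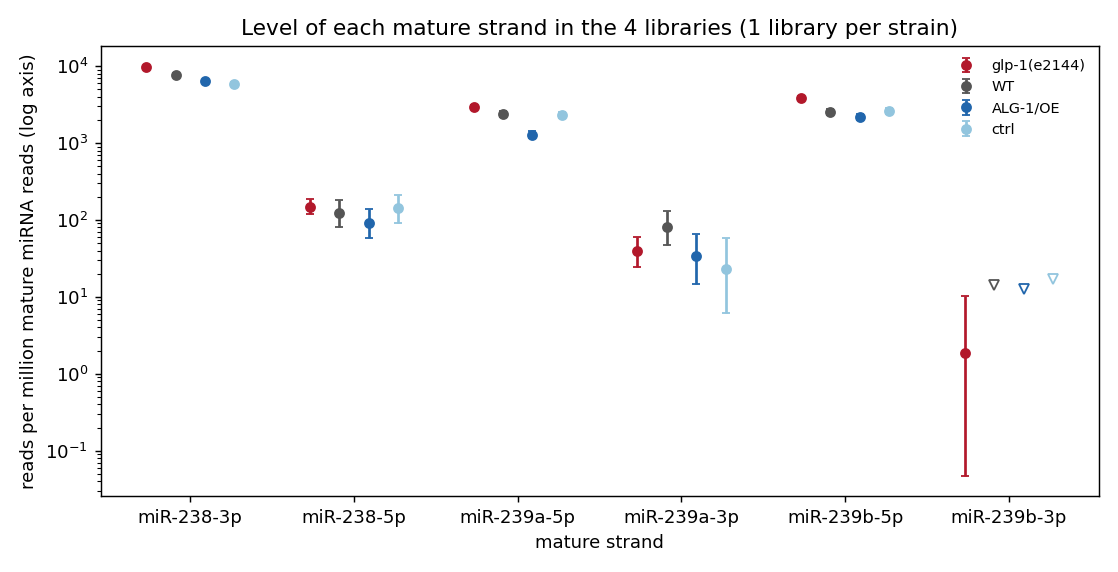
RPM (log axis) of the 6 mature strands in the 4 libraries, with 95% Clopper-Pearson intervals. Open triangles mark the level of 3 reads, the floor used for a strand with 0 reads. miR-239a-5p in ALG-1/OE, at 1289 RPM, sits below its 3 other libraries, which lie between 2308 and 2956 RPM.

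The other strand of a hairpin, released when the duplex is unwound, was rare for mir-238 and mir-239a and nearly absent for mir-239b. For miR-238-5p, *glp-1(e2144)* gave 80 reads against 26 from WT, and ALG-1/OE gave 22 against 25 from ctrl. That was 1.52% of its hairpin's mature reads for *glp-1(e2144)* and 1.56% in WT, and 1.44% in ALG-1/OE and 2.40% in ctrl, with overlapping intervals. For miR-239a-3p, *glp-1(e2144)* gave 21 reads against 17 from WT, and ALG-1/OE gave 8 against 4 from ctrl. Its share was lower in *glp-1(e2144)*, at 1.31% (0.810% to 1.99%), than in WT, at 3.23% (1.89% to 5.11%), with intervals that overlap slightly. In ALG-1/OE it was 2.54% (1.10% to 4.94%) and in ctrl 0.980% (0.268% to 2.49%), which also overlap.

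Relative to its partner strand, miR-239a-3p in *glp-1(e2144)* was thus at 0.397 times its WT level (exact conditional interval 0.198 to 0.808). For mir-238 the same ratio in *glp-1(e2144)* over WT was 0.973 (0.615 to 1.58), and no difference was detectable at this depth. In ALG-1/OE over ctrl the ratios were 2.63 (0.697 to 12.0) for mir-239a and 0.592 (0.317 to 1.10) for mir-238. In ctrl over WT the ratio for mir-239a was 0.297 (0.0722 to 0.921), so the share of this rare strand was also lower in ctrl than in WT, on 4 reads. miR-239b-3p had 1 read in *glp-1(e2144)* and 0 in each of WT, ALG-1/OE and ctrl. The floor of 3 reads used for a count of 0 is 0.563% of the mature reads of mir-239b in WT, 0.574% in ALG-1/OE and 0.648% in ctrl. The intervals used for the other shares have higher upper limits here, at 0.690% in WT, 0.703% in ALG-1/OE and 0.794% in ctrl. No fold change is given for this strand. In all 4 libraries the hairpin count equalled the sum of both strands for each of the 3 genes, which leaves 0 reads for the loop or flanks in these files. Over all hairpins this held for 524 of 599 values with reads.

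The comparison of *glp-1(e2144)* with WT sets worms without a germline beside wild-type worms. All 3 main strands took a larger part of the miRNA reads in *glp-1(e2144)* under each scaling tried, and with totals of miRNA reads none reached 2-fold, the cut-off of the study's methods. miR-239b-5p had the largest difference, 1.54 times its WT level (interval 1.40 to 1.69), a log2 difference of 0.62. miR-238-3p was at 1.24 times (1.18 to 1.32) and miR-239a-5p at 1.22 times (1.11 to 1.35) the WT level. With totals of all mature miRNA reads these differences exceed counting error, and the spread between preparations is not known. In RNA from whole worms, fewer cells of a type and less RNA per cell cannot be told apart.

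Of 199 mature miRNAs read at least once on each side, 9.55% lay above the 2-fold cut-off in *glp-1(e2144)* and 27.1% below it. Of the 5 member strands measured, 0 lay above it and 1 below it. This was miR-239a-3p, with a log2 difference of -1.04 (-2.03 to -0.028), whose interval crosses the cut-off. Among the 60 miRNAs counted 100 or more times in each of the pair, a minimum chosen after the counts were seen, the median log2 difference was 0.26. Of these, 54 lay below miR-239b-5p, 37 below miR-238-3p and 34 below miR-239a-5p. So miR-239b-5p stood in the upper part of the well-counted miRNAs, while miR-238-3p and miR-239a-5p were near the middle. With the miR-35 to miR-42 family left out of the totals, the log2 differences were 0.45 for miR-239b-5p, 0.14 for miR-238-3p and 0.12 for miR-239a-5p. Leaving it out moves every log2 difference and interval of the comparison by -0.17. The log2 interval of miR-239a-5p, 0.15 to 0.44 with all mature reads, then includes 0.

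The comparison of ALG-1/OE with ctrl sets a strain with more of the Argonaute beside a strain with another transgene. Effects of the Argonaute, of the transgenes, of the strains and of the preparations cannot be told apart in it. The 3 main strands did not move together. miR-239a-5p was lower in ALG-1/OE, at 0.559 times its level in ctrl (interval 0.480 to 0.649) and a log2 difference of -0.84. miR-239b-5p was at 0.830 times (0.731 to 0.943) the ctrl level, though above ctrl with unscaled counts (log2 difference 0.18), and miR-238-3p at 1.09 times (1.01 to 1.18) the ctrl level. With TMM factors the log2 difference of miR-238-3p was -0.045 in place of 0.13, so its direction depends on the scaling, and that of miR-239a-5p was -1.01, past the cut-off.

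Of 204 miRNAs read at least once on each side, 11.3% lay above the 2-fold cut-off in ALG-1/OE and 6.86% below it, and 0 of the 5 member strands measured lay past it on either side. Of the 65 miRNAs with 100 or more reads in each library, 0 lay below miR-239a-5p. The next lowest was miR-80-5p, at -0.77, which lies inside the interval of miR-239a-5p (-1.06 to -0.62). Counting error alone thus does not separate these places. With a minimum of 50 reads, 0 of 81 miRNAs lay below miR-239a-5p, which fixes the same result for the smaller sets at 100, 200 or 300 reads. With a minimum of 10 reads, 3 of 131 miRNAs lay below it. A place in this order does not depend on the scaling, since a scaling moves every miRNA of a comparison alike. In the same 65, 18 lay below miR-239b-5p and 37 below miR-238-3p.

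The rare strands gave no clear difference between ALG-1/OE and ctrl. miR-238-5p had a log2 difference of -0.63 (-1.52 to 0.26) and miR-239a-3p one of 0.56 (-1.34 to 2.74).

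The ctrl and WT libraries differ in strain, transgenes and temperature, which cannot be told apart, and give the distance between the control libraries. miR-238-3p was at 0.748 times its WT level in ctrl (interval 0.691 to 0.809), a log2 difference of -0.42. miR-239a-5p was at 0.955 times (0.836 to 1.09) and miR-239b-5p at 1.05 times (0.923 to 1.19) the WT level, and the direction of both depended on the scaling, with log2 differences of -0.16 to 0.088 and of -0.031 to 0.22 over the scalings to miRNA reads, and of -0.34 and -0.20 with unscaled counts. At this scaling miR-238-3p differed more between the control libraries than between *glp-1(e2144)* and WT, but with TMM factors it differed less, at -0.27 against 0.35. miR-239a-3p had 4 reads in ctrl against 17 in WT, a log2 difference of -1.82 (-3.85 to -0.20). It was the 1 member past the cut-off here, where 10.6% of 198 miRNAs lay above it and 11.1% below it. Both the ALG-1/OE and the ctrl over WT values use the ctrl library, and both the *glp-1(e2144)* and the ctrl over WT values use the WT library.

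**Figure D2:**
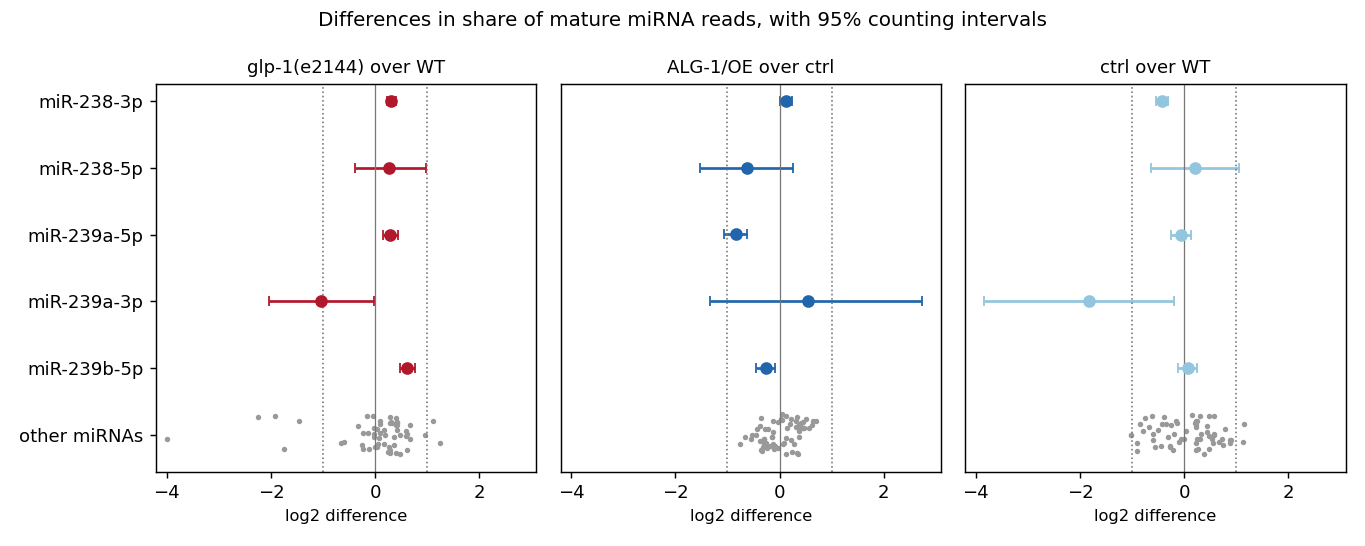
The log2 difference of 5 member strands in each comparison, with 95% counting intervals, above the other miRNAs with 100 or more reads in each library (grey, values below -4 drawn at -4). Dotted lines mark the 2-fold cut-off. In ALG-1/OE over ctrl, miR-239a-5p at -0.84 lies to the left of every grey point, and miR-239b-5p lies at -0.27.

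A ratio between 2 strands of the same library needs no scaling. miR-239b-5p and miR-239a-5p, from the neighbouring hairpins on chromosome X, had nearly equal reads in WT, with a ratio of 1.05 (interval 0.924 to 1.18). The ratio was 1.31 (1.23 to 1.40) in *glp-1(e2144)*, and 1.70 (1.48 to 1.97) in ALG-1/OE against 1.15 (1.00 to 1.31) in ctrl. miR-239b-5p thus gained on miR-239a-5p by 1.26-fold (exact conditional interval 1.09 to 1.45) in *glp-1(e2144)* over WT and by 1.49-fold (1.22 to 1.81) in ALG-1/OE over ctrl. Between ctrl and WT the change was 1.10-fold (0.912 to 1.32), whose interval includes no change. In *glp-1(e2144)* both strands were above WT, and in ALG-1/OE miR-239a-5p was below ctrl, under each scaling tried.

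The ratio of miR-238-3p to miR-239a-5p was 3.27 in *glp-1(e2144)* against 3.22 in WT, which is a change of 1.02-fold (0.905 to 1.14). In ALG-1/OE the ratio was 4.92 against 2.52 in ctrl, a change of 1.96-fold (1.65 to 2.32). The ratio of miR-238-3p to miR-239b-5p was 2.49 in *glp-1(e2144)* and 3.08 in WT, which is a change of 0.809-fold (0.723 to 0.904), and 2.89 in ALG-1/OE and 2.20 in ctrl, a change of 1.32-fold (1.13 to 1.53). Of the 3 pairs, miR-238-3p and miR-239a-5p had the smallest change in *glp-1(e2144)* over WT and the largest in ALG-1/OE over ctrl. In ctrl over WT the ratio of miR-238-3p to miR-239a-5p changed by 0.782-fold (0.670 to 0.914). The ratio to miR-239b-5p changed by 0.713-fold (0.614 to 0.829) there, so at 2.89 ALG-1/OE stood nearer to WT than to ctrl.

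With its neighbour on chromosome III, the abundant miR-80-3p, miR-238-3p had a ratio of 0.151 in *glp-1(e2144)* and 0.150 in WT, which is a change of 1.01-fold (0.952 to 1.07). This pair was chosen after the annotation and the counts had been seen. In ALG-1/OE the ratio was 0.155, close to both, and in ctrl it was 0.112, so that it changed by 1.38-fold (1.27 to 1.51) in ALG-1/OE over ctrl and by 0.747-fold (0.687 to 0.812) in ctrl over WT. In this ratio ctrl was the library that stood apart, whereas in the ratio of miR-239b-5p to miR-239a-5p it was ALG-1/OE.

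**Figure D3:**
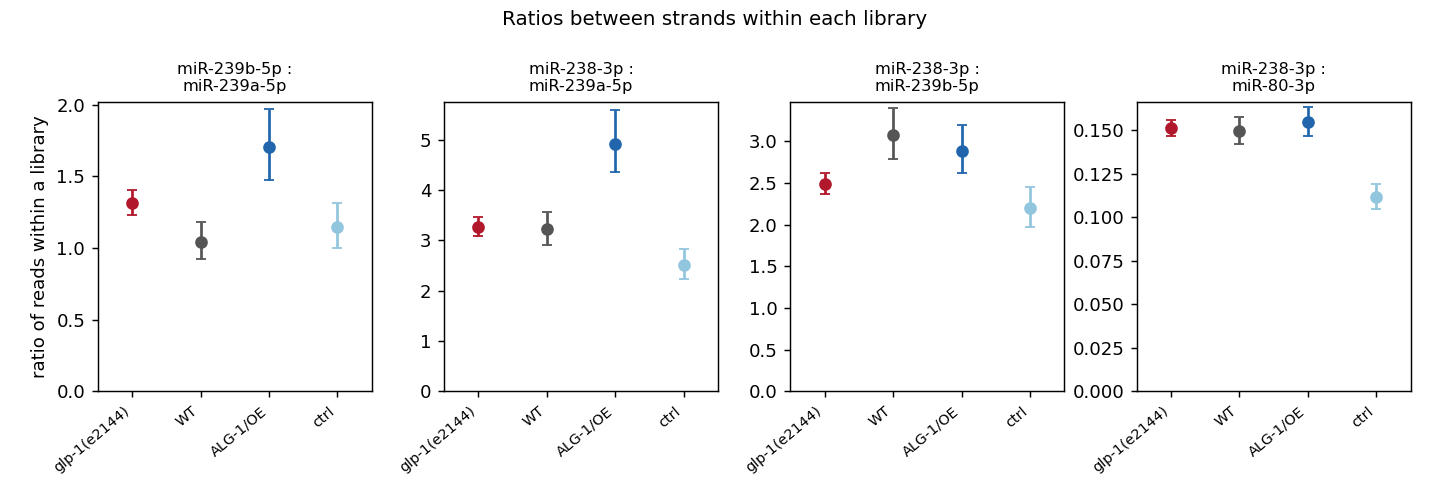
Ratios of reads between main strands within each library, and of miR-238-3p to miR-80-3p, with 95% Clopper-Pearson intervals. The ratio of miR-239b-5p to miR-239a-5p is highest in ALG-1/OE at 1.70, and that of miR-238-3p to miR-80-3p is lowest in ctrl at 0.112.

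A scaling to miRNA reads cannot show a rise of all miRNAs together. The study scaled to all reads generated per sample, and those totals were not used here. Any such scaling changes the log2 differences of a comparison by 1 shared amount, so the unscaled counts show what it could give. The *glp-1(e2144)* library held 2.54 times the mature miRNA reads of WT, and unscaled the log2 differences were 1.97 for miR-239b-5p, 1.66 for miR-238-3p and 1.64 for miR-239a-5p. They would lie more than 2-fold above WT if *glp-1(e2144)* had fewer than 1.95 (miR-239b-5p), 1.58 (miR-238-3p) or 1.56 (miR-239a-5p) times the total reads of WT. In ALG-1/OE, with 1.36 times the mature miRNA reads of ctrl, the unscaled log2 differences were 0.57 for miR-238-3p, 0.18 for miR-239b-5p and -0.40 for miR-239a-5p. miR-239a-5p was the 1 main strand below ctrl under every scaling tried, unscaled counts included. It would reach its level in ctrl only if the total reads of ALG-1/OE were 0.760 times those of ctrl or fewer.

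**Figure D4:**
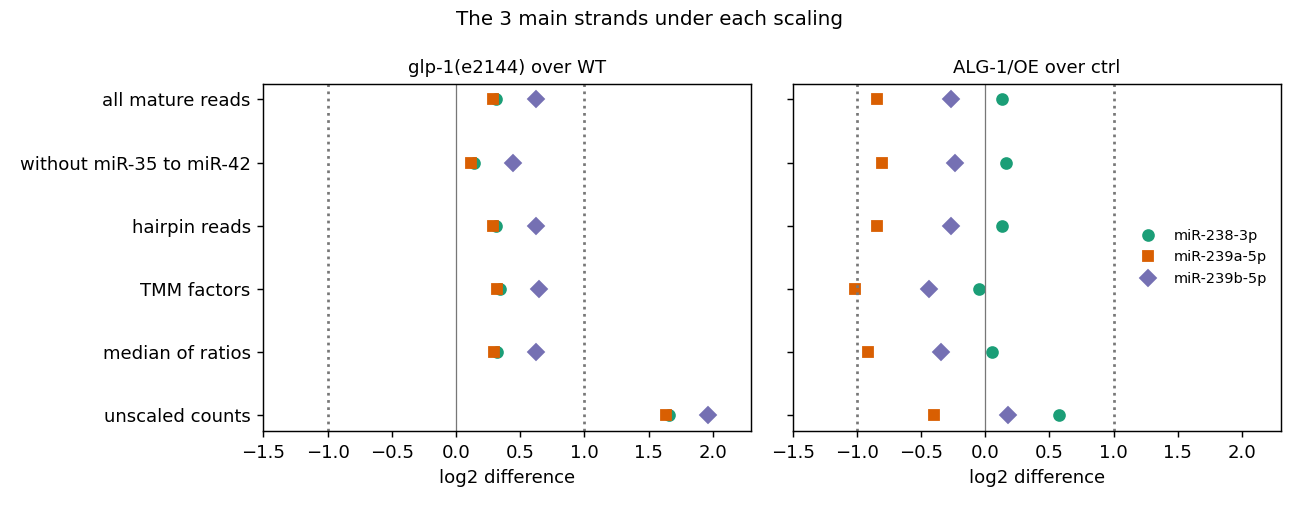
The log2 difference of the 3 main strands under 6 scalings, from all mature miRNA reads at the top to unscaled counts at the bottom, with dotted lines at the 2-fold cut-off. The distances between strands do not change with the scaling. miR-239a-5p stays below 0 in ALG-1/OE over ctrl, between -1.01 and -0.40, while miR-238-3p is below 0 there only with TMM factors, at -0.045.

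The miRNAs whose profile over the 4 libraries was closest to each main strand were found by Euclidean distance. It was taken between log2 RPM values, each centred on its own mean. The 139 miRNAs used had at least 50 reads in all and reads in each library. That number includes members, which were left out of the search. These distances rest on 4 libraries and are a description. Closest to miR-238-3p were miR-57-5p, a miRNA of posterior cell fate (distance 0.15), miR-44-3p (0.22) and the RDE-1-bound miR-243-3p (0.24). Closest to miR-239b-5p were miR-63-3p (0.16), the intestinal miR-60-3p (0.19) and miR-80-3p (0.24). Closest to miR-239a-5p were miR-83-3p of the miR-29 family (0.24), miR-248 (0.33) and miR-1-5p (0.37). The members themselves lay farther apart, at 0.38 between miR-238-3p and miR-239b-5p, 0.53 between miR-239a-5p and miR-239b-5p, and 0.69 between miR-238-3p and miR-239a-5p. The closest miRNAs were picked from many candidates and the relatives were not, so smaller distances outside the family follow from the choice. Where the relatives rank among the candidates was not computed.

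Other miRNAs whose mutants have an altered lifespan were set beside the members. Of a list of 7, miR-124-3p had no reads and 6 were measured. In *glp-1(e2144)* 6 of the 6 lay above 0, 5 with an interval above it, and 2 lay above the 2-fold cut-off, where of all 199 miRNAs 49.7% lay above 0 and 9.55% above the cut-off. These were miR-246-3p, with a log2 difference of 1.25 (1.21 to 1.30), and the developmental timing miRNA lin-4-5p, which had only 12 reads against 2 in WT (-0.93 to 4.44). The median of the list was 0.45, against -0.013 over all 199 miRNAs, 0.26 over the 60 with 100 or more reads in each library and 0.32 for the 3 main strands. Apart from lin-4-5p, the measured list had 100 or more reads on both sides, so those 60 are its closer background. Of the 60, 2 lay above the cut-off, and their median places most of them above 0. The share of well-counted miRNAs above 0 was not computed in either comparison. In ALG-1/OE 1 of the 6 lay above 0 and 5 below it, where 59.3% of all 204 miRNAs lay above 0. The median was -0.19, against 0.14 over all 204, 0.026 over the 65 with 100 or more reads in each library and -0.27 for the main strands. That median was 0.25 with unscaled counts, so its direction depends on the scaling, and -0.038 without lin-4-5p, which had 1 read in ALG-1/OE and 2 in ctrl. In *glp-1(e2144)* the list without lin-4-5p had a median of 0.30. In ALG-1/OE the intervals excluded 0 only for miR-228-5p, at 0.088 (0.053 to 0.12), and miR-80-3p, at -0.34 (-0.38 to -0.30). The lifespan-promoting miR-71-5p had 0.59 (0.52 to 0.67) in *glp-1(e2144)*, close to the 0.62 of miR-239b-5p, and -0.038 (-0.13 to 0.051) in ALG-1/OE.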

How the data were processed

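The authors trimmed adapters and dropped short reads (Fastx-ToolKit), mapped what was left to ce10 (Bowtie2) and deposited raw read counts per miRNA hairpin and per mature strand, without normalization. The tool versions, the annotation and the treatment of reads with several hits are not given in the sources used here. The labels name a SOLiD library kit, and the methods an Illumina instrument and smaller pools of worms. Groups come from the sample labels. The deposited hairpin coordinates on chromosomes III and X equal WBcel235 for 93 of 96 hairpins.

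For a name with several rows, the row with the most reads was used. Differences are log2 ratios of RPM without a pseudocount, with Clopper-Pearson intervals of the read split. Ratios of ratios have exact conditional intervals. Both kinds of interval were tested only on counts simulated with counting error and no other spread. PCR reads are not independent molecules, so intervals and floors (3 reads) cover counting error only. With 1 library per group, edgeR served for TMM factors only. A planned comparison of miRNAs by seed sequence was not run. The members and lists were chosen with earlier results of these data known. Named miRNAs were the members, the lifespan list, the tissue markers, and the 3 miRNAs most alike to each main strand. The last came from miRNAs outside the family with at least 50 reads in all and reads in each library. miR-80-5p and the miR-238-3p to miR-80-3p ratio were added after the annotation and the counts had been seen. Alternatives were other scalings, a pseudocount of 0.5 reads, a minimum of 10 reads in both libraries, summed rows, a 1.5-fold cut-off, hairpin rows, and a minimum of 200 reads or another measure for likeness. The tools were Python 3.11.15, numpy 2.4.6, scipy 1.17.1, pandas 2.3.3, R 4.3.3 and edgeR 4.0.16.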

Additional observations from a re-analysis of the deposited data

Results flagged for a closer look

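Of the 5 member strands measured, 4 lay on opposite sides of 0 in the *glp-1(e2144)* over WT and the ALG-1/OE over ctrl comparisons, which share no library. Of all 185 miRNAs with reads in the 4 libraries, 115 (62.2%) did so, and 34 of the 58 with 100 or more reads in each, so such a split was common and is not particular to the members. The difference between the comparisons was not tested, since each rests on 1 library per strain, and the comparisons also differ in temperature. For miR-239a-5p the first log2 difference minus the second was 1.13, from 0.29 and -0.84. For miR-239b-5p it was 0.89, from 0.62 and -0.27. For miR-238-5p it was 0.90, from 0.28 and -0.63, and for miR-239a-3p it was -1.60, from -1.04 and 0.56. The interval of at least 1 of the 2 values includes 0 for miR-238-5p and miR-239a-3p. With unscaled counts, the values of miR-239b-5p are 1.97 and 0.18, on the same side of 0, as are those of miR-239a-3p, at 0.30 and 1.00, while those of miR-239a-5p are 1.64 and -0.40 and those of miR-238-5p 1.62 and -0.18.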

How the results depend on the processing

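Of the values recomputed under alternatives, 182 stayed within the counting interval of the value reported (counts within 1.5 times it, list medians within 0.1). Another 39 moved further, and 1 that lay past the 2-fold cut-off reversed. Some of the 182 could not move. They include 13 log2 differences under a minimum of reads, which leaves such values unchanged. They also include 12 strand shares of hairpin reads, since the member hairpins had no reads outside their strands. Changes of sign in values short of the cut-off were not counted as reversed. That of miR-239b-5p in ALG-1/OE over ctrl, from -0.27 to 0.18 with unscaled counts, is among the 39. Unscaled counts moved the log2 differences most. They gave 1.66 for miR-238-3p, 1.64 for miR-239a-5p and 1.97 for miR-239b-5p in *glp-1(e2144)* over WT, and 0.57, -0.40 and 0.18 in ALG-1/OE over ctrl, and they turned miR-239a-3p in *glp-1(e2144)* over WT to 0.30. With miR-35 to miR-42 left out of the totals, which lowered the median of all miRNAs by 0.17, miR-238-3p, miR-239a-5p and miR-239b-5p were at 0.14, 0.12 and 0.45 in *glp-1(e2144)* over WT. TMM factors, which moved that median by -0.17 in ALG-1/OE over ctrl and by 0.15 in ctrl over WT, gave -0.045 for miR-238-3p in ALG-1/OE over ctrl. Scaling to hairpin reads, median of ratios, summed rows, a pseudocount, and hairpin rows for ratios and shares moved no value outside these bounds. Scaling to hairpin reads and summed rows hardly differ from the main scaling. Their largest shifts of the log2 differences were -4.6e-04 and -8.5e-04, both in *glp-1(e2144)* over WT. The 23 values under each are thus little evidence of stability. With at least 200 reads, miR-34-5p replaced miR-1-5p among the miRNAs closest to miR-239a-5p, and the other 8 were kept.

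The reported counts of miRNAs above and below the 2-fold cut-off were 19 and 54 in *glp-1(e2144)* over WT, 23 and 14 in ALG-1/OE over ctrl, and 21 and 22 in ctrl over WT. With unscaled counts they were 121 and 25 in *glp-1(e2144)* over WT, 43 and 5 in ALG-1/OE over ctrl, and 9 and 37 in ctrl over WT. At least 10 reads in both libraries left 9 and 21, 5 and 1, and 7 and 6 in the same order, where fewer miRNAs were counted. TMM factors gave 14 above the cut-off in ALG-1/OE over ctrl. A 1.5-fold cut-off gave 42 above it in *glp-1(e2144)* over WT, 42 above and 24 below in ALG-1/OE over ctrl, and 45 above and 51 below in ctrl over WT. The cause of the shift with TMM factors was not tested. No paired analysis was possible because each strain has 1 library. The rare strands, with 26 reads or fewer outside *glp-1(e2144)*, limit what can be said of strand shares.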

Other observations

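The strand next to miR-239a-5p at the bottom of the ALG-1/OE over ctrl order, miR-80-5p, comes from the hairpin beside mir-238. ALG-1/OE gave 615 reads of it against 769 from ctrl, a log2 difference of -0.77. In ctrl over WT its log2 difference was 0.73, where that of miR-239a-5p was -0.066, so miR-80-5p stood nearer to WT in ALG-1/OE than in ctrl.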
